A study of Mus musculus with 3 samples.

Results

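The genes described here were 10 loci known for their parts in T cell development: the transcription factors Tcf7, Lef1, Bcl11b and Tox, the receptor Notch1, the antigen receptor components Ptcra, Cd3e and Cd3d, and the receptor signalling proteins Lck and Themis. They were chosen by name, as 10 of 32587 annotated genes, and were read in the chromatin of long-term haematopoietic stem cells (LT-HSCs). The donors were females of wild-type genotype, 24 months old. Their marrow had been enriched for c-Kit, and the sort then kept cells without lineage markers, CD34 or CD48 and with Sca-1, c-Kit and CD150. DOGMA-seq had given 3 libraries from 1 pool of cells, for open chromatin (ATAC), RNA and antibody tags, and the RNA matrix was not analysed here. There was thus 1 sample and no replicate, so no comparison between cells carries a test, and all intervals are exact 95% intervals that cover counting error only.

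Of 3724 barcodes with antibody tags, the 3629 with at least 10 summed tags were kept, and all 3629 were among the 4369 barcodes that the deposited table calls cells. They held 38498362 nuclear ATAC fragments, with a median of 10287 per cell (3853 to 45069), and a median of 29 antibody tags (10 to 173). The label was set beside marker lists, which were chosen with earlier results of these data known. The 10 HSC genes had a median promoter level of 7.35, in fragments per kb per 1000000 nuclear fragments, against 4.96 over all protein-coding promoters, and the medians of the mature T cell, B cell, NK and ILC, and myeloid lists were 0.402, 0.682, 0.305 and 0.850. Promoters were open at 6 of the 10 HSC genes, 3 of 12 mature T cell, 4 of 10 B cell, 2 of 10 NK and ILC and 3 of 10 myeloid genes, so the HSC share was near the 61.4% of all protein-coding genes. Promoters of 10 megakaryocyte genes had a median of 5.43, also with 6 open.

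T cell development begins when progenitors seeding the thymus receive Notch signals. Notch1 is the receptor for these signals, and Tcf7, which encodes the HMG-box factor TCF-1, is among the first genes to respond. TCF-1 and its relative LEF-1 are known to open chromatin at T cell genes, and Bcl11b then closes off the alternative fates. The antigen receptor is built from components such as the pre-T-cell receptor alpha chain Ptcra, which pairs with a newly rearranged beta chain, and the CD3 chains Cd3e and Cd3d. Lck is the kinase that phosphorylates the CD3 chains, and Themis is an adaptor needed at positive selection. A gene whose promoter is accessible before it is used is often called primed.

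The 10 genes fell into separate kinds by where their chromatin was open, and the sequences that mark these kinds are given first. An open site is a stretch where Tn5 insertions, pooled over the kept cells, reached at least 5 times the genome mean and 3 times their 20 kb surroundings. All sequences are from the RefSeq GRCm38.p6 genome, in the direction of the gene. Capitals mark matches on either strand to any of the 6 motifs searched, which do not overlap each other in the sequences shown. The TCF/LEF motif was searched as CTTTGA and also as the letters CTTTGT, RUNX as TGTGGT and also as the letters TGCGGT, ETS as CAGGAA and also as the letters CCGGAA, and the E-box as CAGCTG and also as the letters CAGGTG. The motif of GATA factors was searched as AGATAA and the motif of RBPJ, the Notch effector, as the letters GTGGGAA. The first pair are open starts. They are the 300 bases around the summit of the Tcf7 promoter site (chr11:52283200-52283499, minus strand), upstream of the gene, and the 250 bases upstream of the coding start of Notch1 (chr2:26503823-26504072, minus strand).
Tcf7 promoter site: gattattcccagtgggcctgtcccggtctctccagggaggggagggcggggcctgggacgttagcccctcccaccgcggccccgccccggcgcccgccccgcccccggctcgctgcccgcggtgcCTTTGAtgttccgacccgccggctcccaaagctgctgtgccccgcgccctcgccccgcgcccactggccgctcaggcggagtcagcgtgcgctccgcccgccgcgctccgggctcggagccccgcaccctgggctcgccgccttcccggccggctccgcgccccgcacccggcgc
Notch1 upstream of coding start: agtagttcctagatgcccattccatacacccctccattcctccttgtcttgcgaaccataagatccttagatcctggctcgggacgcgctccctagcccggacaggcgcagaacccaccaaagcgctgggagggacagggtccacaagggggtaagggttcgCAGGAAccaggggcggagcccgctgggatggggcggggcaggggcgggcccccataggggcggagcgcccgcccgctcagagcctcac
The Tcf7 window held 42 CpG dinucleotides and 1 TCF/LEF match, and the Notch1 window held 16 CpG dinucleotides and 1 ETS match.

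The second set are closed starts, where no site was found. They are the 250 bases upstream of Ptcra (chr17:46763713-46763962, minus strand), of Cd3e (chr9:45009614-45009863, minus strand) and of Cd3d (chr9:44981536-44981785, plus strand).
Ptcra upstream: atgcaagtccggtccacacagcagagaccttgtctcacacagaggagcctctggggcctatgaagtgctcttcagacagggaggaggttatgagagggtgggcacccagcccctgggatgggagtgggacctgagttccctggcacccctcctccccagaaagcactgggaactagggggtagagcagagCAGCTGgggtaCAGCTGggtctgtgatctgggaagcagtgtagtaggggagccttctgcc
Cd3e upstream: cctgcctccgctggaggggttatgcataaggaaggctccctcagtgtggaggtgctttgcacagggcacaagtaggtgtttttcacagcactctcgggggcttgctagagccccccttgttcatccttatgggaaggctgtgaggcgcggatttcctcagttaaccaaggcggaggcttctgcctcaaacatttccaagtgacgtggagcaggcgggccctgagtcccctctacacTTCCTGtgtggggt
Cd3d upstream: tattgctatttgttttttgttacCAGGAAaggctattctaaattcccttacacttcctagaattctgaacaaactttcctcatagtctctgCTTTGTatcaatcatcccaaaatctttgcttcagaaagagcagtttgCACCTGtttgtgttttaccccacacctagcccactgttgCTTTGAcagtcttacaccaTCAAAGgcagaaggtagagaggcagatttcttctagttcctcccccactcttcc
These windows held 1, 7 and 0 CpG dinucleotides. The closed Cd3d start nevertheless carried 3 TCF/LEF matches, 1 ETS and 1 E-box match, and the Ptcra start 2 E-box matches.

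The third set are strong open sites away from a start. They are the upstream site of Lck (chr4:129575300-129575599, minus strand), the site inside Lck, with its summit in an intron (chr4:129556400-129556699, minus strand), and 30 bases at the summit of the site inside Cd3d (chr9:44986635-44986664, plus strand).
Lck upstream site: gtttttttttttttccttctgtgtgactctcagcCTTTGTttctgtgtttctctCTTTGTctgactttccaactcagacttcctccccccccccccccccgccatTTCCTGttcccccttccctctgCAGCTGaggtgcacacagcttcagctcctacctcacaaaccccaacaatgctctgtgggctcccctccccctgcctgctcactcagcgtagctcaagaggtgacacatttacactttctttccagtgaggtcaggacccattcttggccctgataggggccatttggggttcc
Lck internal site: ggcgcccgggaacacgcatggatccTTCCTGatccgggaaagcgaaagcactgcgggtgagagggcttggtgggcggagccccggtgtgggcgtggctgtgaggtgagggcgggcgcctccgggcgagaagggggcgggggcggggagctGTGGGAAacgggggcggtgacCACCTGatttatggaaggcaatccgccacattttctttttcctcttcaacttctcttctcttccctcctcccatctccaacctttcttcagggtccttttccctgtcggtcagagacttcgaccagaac
Cd3d internal site, 30 bases: tccagtccctatcataacaacTTCCGGgat
The upstream site of Lck held 2 TCF/LEF, 1 ETS and 1 E-box matches and 2 CpG dinucleotides, whereas the internal site held 20 CpG dinucleotides and 1 match each to ETS, E-box and RBPJ. The summit of the Cd3d site lay in the 3′ untranslated part of the last exon.

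The T-lineage transcription factors had open promoters in these stem cells and the antigen receptor genes did not. A promoter was called open where a site lay within 500 bp of the 5′ end of the gene, and this held for Tcf7, Lef1, Bcl11b and Tox, 4 of the 10 genes, against 61.4% of 21938 protein-coding genes. A further 4 (Notch1, Cd3d, Lck and Themis) had an open site elsewhere in the window of gene body and 2 kb upstream, which was the case for 13.1% of protein-coding genes. Ptcra and Cd3e had no site at all, while 74.5% of protein-coding genes had at least 1. The 4 open promoters were the same at 10 times and at 3 times the genome mean. When the start of any coding transcript was allowed, Notch1 and Cd3d were added, giving 6 of 10 against 65.6% of coding genes. For Cd3d this rested on a short annotated transcript that starts near the internal site.

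The promoter levels spanned a wide range, and they are given as fragments over 1 kb on each side of the 5′ end, per kb and per 1000000 nuclear fragments. For scale, the 1093 olfactory receptor promoters, a silent family, had a median of 0.013, all protein-coding promoters a median of 4.96, and 77 ribosomal protein promoters a median of 17.9. Tox, an HMG-box factor of thymocyte development and T cell exhaustion, was highest at 16.2 (15.3 to 17.1) from 1247 fragments, higher than 77.6% of genes. Tcf7 was at 8.54 (7.90 to 9.22, 658 fragments), Lef1 at 5.41 (4.91 to 5.96, 417 fragments) and Bcl11b at 3.96 (3.53 to 4.43, 305 fragments). No interval of these 4 overlapped another, so the order Tox, Tcf7, Lef1, Bcl11b exceeded counting error.

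The remaining 6 genes lay below all 4 factors. Lck was at 1.92 (1.62 to 2.26, 148 fragments) and Notch1 at 1.75 (1.47 to 2.07, 135 fragments), and these neighbours did not differ beyond their intervals. Cd3d, at 0.325 (0.210 to 0.479, 25 fragments), Cd3e, at 0.273 (0.169 to 0.417, 21 fragments), and Ptcra, at 0.247 (0.148 to 0.385, 19 fragments), could not be ordered either. Themis was lowest at 0.078 (0.029 to 0.170) from 6 fragments, and its interval overlapped those of Ptcra and, narrowly, Cd3e. These lowest 4 were above the olfactory receptor median, and they were between the 18.2 and the 27.7 percentile of all genes. The plot of levels shows the step between the factors and the receptor genes.

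**Figure D1:**
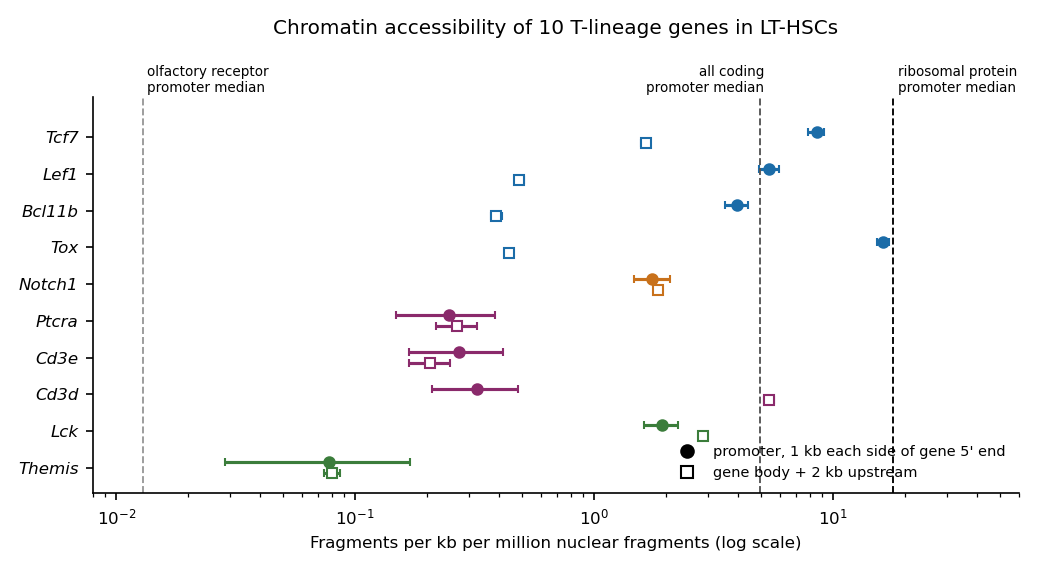
Accessibility of the 10 genes on a log scale, with filled circles for the promoter (1 kb on each side of the 5′ end), open squares for the gene body with 2 kb upstream, and bars for exact 95% Poisson intervals, which cover counting error only. Dashed lines are the promoter medians of olfactory receptor genes (0.013), all protein-coding genes (4.96) and ribosomal protein genes (17.9). The 4 factors (blue) have promoters between 3.96 and 16.2, and Ptcra, Cd3e, Cd3d and Themis have promoters at or below 0.325.

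The order over whole genes was a different one. Per kb of gene body and 2 kb upstream, Cd3d was highest at 5.40 (5.13 to 5.67, 1570 fragments), higher than 93.1% of genes, and Lck followed at 2.86 (2.76 to 2.97, 3008 fragments). Notch1 was at 1.85 (1.79 to 1.90) and Tcf7 at 1.65 (1.58 to 1.72). The long genes Lef1, Tox and Bcl11b were at 0.486, 0.439 and 0.390, close to the genome mean of 0.380. Ptcra was at 0.266 (0.217 to 0.323) and Cd3e at 0.206 (0.168 to 0.250), which overlapped each other, and Themis was at 0.0799 (0.0740 to 0.0862). The window of Cd3d overlaps that of its neighbour Cd3g, but the whole Cd3g window held 160 fragments and the open site of Cd3d lay outside it. That site, at the 3′ end of Cd3d, sets the level of the window, and which gene it acts on was not tested. The open sites held 90.5% of the window fragments at Cd3d and 84.4% at Lck, but 49.4% at Tox and 29.9% at Themis.

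Among the transcription factors, Tcf7 had the most compact pattern. The gene lies at chr11:52252371-52283014 on the minus strand (mm10, GENCODE M21), and its promoter site of 1900 bp had its summit 336 bp upstream of the 5′ end, with 558 insertions in 300 bp, higher than 81.4% of all open sites. There were 3 intronic sites, at 17.3, 20.9 and 28.8 kb into the gene, with 128, 451 and 318 insertions. The 20.9 kb site reached a level of 19.7, above the 9.36 of the broader promoter site. The promoter site had a fragment in 572 of 3629 cells (15.8%).

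Lef1 (chr3:131110471-131224356, plus strand) had 8 sites, of which 3 stood within 2 kb of the 5′ end. The summits at 121 bp upstream, 779 bp and 1.68 kb downstream had 142, 196 and 265 insertions. The summit at 1.68 kb lay 60 bp from an annotated start of another gene, Gm43352, and 647 bp before a second coding start of Lef1. Which of these starts it belongs to was not tested. An intronic site at 47.2 kb had 279 insertions, more than any of the 3 sites near the 5′ end, and another at 98.3 kb had 189. The median over all 68169 open sites was 180 insertions.

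Bcl11b (chr12:107910403-108003602, minus strand), the commitment factor, had the lowest promoter level of the 4 over 1 kb on each side of the start. Its site 548 bp upstream had 214 insertions, more than the 142 of the site at the 5′ end of Lef1, the sites at 0.852 and 1.55 kb had 117 and 103, and the strongest of its 6 sites was intronic, 4.65 kb into the gene, with 285 insertions. Both sites farther in, at 23.1 and 27.2 kb, had fewer than 100.

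Tox (chr4:6686353-6991557, minus strand) had 11 sites over 305 kb. Its promoter site of 1500 bp covered both the annotated 5′ end and the coding start, with its summit between them, and had 846 insertions (87.4 percentile) and a fragment in 1082 cells (29.8%). Of the other 10 sites, the strongest was 66.5 kb into the gene with 292 insertions, and 9 had between 58 and 202.

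Notch1 (chr2:26457903-26516663, minus strand) showed its accessibility at an internal start. The annotated 5′ end, at which only 135 fragments lay, belongs to a transcript other than the principal one. The start of the principal transcript, 12.8 kb farther in, carried 1204 fragments and a level of 15.6 (14.8 to 16.5), higher than 76.4% of promoters. The coding start of Tox was higher, at 19.8 (18.8 to 20.8), an interval that did not overlap it. The site there had 1090 insertions (90.5 percentile) and a fragment in 842 cells (23.2%). There were 2 further sites between both starts, with 654 and 315 insertions, and 4 downstream with 120 to 364. Counted from its coding start, Notch1 was therefore among the accessible genes.

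Ptcra (chr17:46755663-46763712, minus strand) and Cd3e (chr9:44998740-45009627, minus strand) held 103 and 102 fragments in all over windows of 10.1 and 12.9 kb. Around their 5′ ends no 100 bp bin of the insertion profile exceeded 10 insertions in the 3629 cells. In Cd3d (chr9:44981786-44987339, plus strand) the start was as empty, with at most 8 insertions per bin, but a single site 4.86 kb downstream had 1464 insertions. This was higher than 93.9% of all open sites and was the highest summit of the 42 sites in the 10 genes. It had 1421 fragments in 1024 cells (28.2%), against 25 fragments at the promoter.

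The signalling genes differed from each other. Lck (chr4:129548344-129573641, minus strand) had a pair of strong sites, neither at a start. The upstream site, with its summit 1.81 kb before the distal start, had 1239 insertions and a fragment in 850 cells (23.4%). A start of the neighbouring gene Fam167b lay 2007 bp from this summit, almost as near, and which gene the site acts on was not tested. The internal site, 1.82 kb downstream of the proximal coding start, had 1319 insertions and a fragment in 1194 cells (32.9%). The distal and the proximal starts themselves had levels of 1.92 and 1.32. Themis (chr10:28668360-28883818, plus strand) had only 3 weak intronic sites, at 58.0, 61.9 and 176 kb, with 78, 110 and 75 insertions, all below the median open site.

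**Figure D2:**
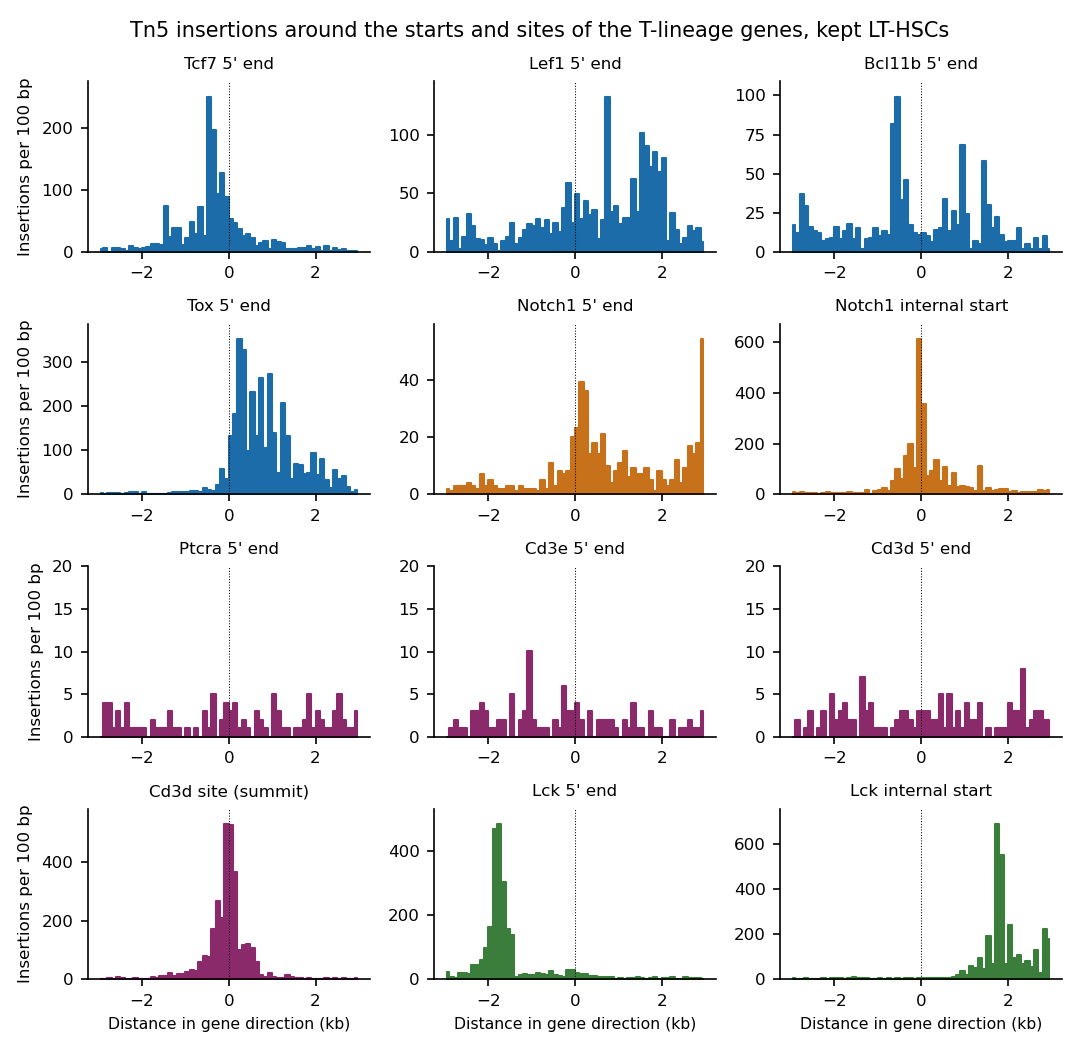
Tn5 insertions per 100 bp, pooled over 3629 cells, against distance in kb from the 5′ end of each gene, from an internal coding start (Notch1, Lck) or from the summit of the Cd3d site, in the direction of the gene. Vertical scales differ between panels. Ptcra, Cd3e and Cd3d show at most 10 insertions per bin around their 5′ ends, whereas the Cd3d site reaches 531, the Notch1 internal start 611, the Lck upstream peak 483 and the Lck internal peak 689.

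**Figure D3:**
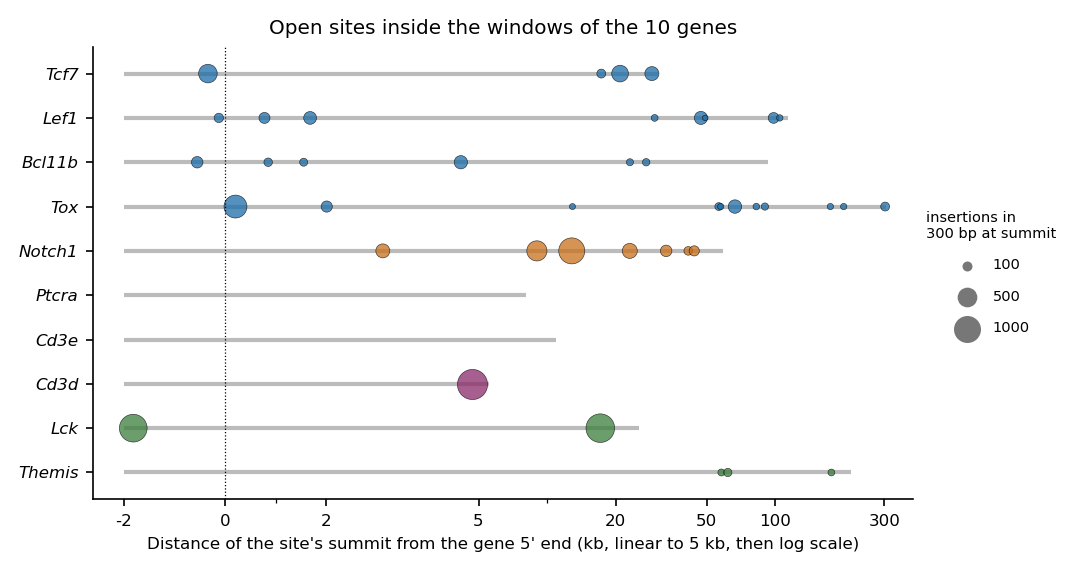
Positions of the 42 open sites (circles, area in proportion to the insertions in 300 bp at the summit) in the windows of the 10 genes (grey bars), by distance in kb from the 5′ end, linear to 5 kb and logarithmic beyond. The largest circles are the sites of Cd3d (1464 insertions), Lck (1319 and 1239) and Notch1 (1090), and Ptcra and Cd3e have none.

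CpG content, which the choice of genes had not used, differed between the open and the closed starts of most of the 10 genes. In the window from 250 bases before to 50 after the 5′ end, the ratio of observed to expected CpG was 1.03 at Tcf7, 0.816 at Lef1 and 0.619 at Bcl11b, and all 3 were open. It was 0.361 at Cd3e, 0.289 at Lck, 0.0774 at Cd3d, 0.0610 at Themis and 0.0357 at Ptcra, and all 5 were closed. The site by which Bcl11b was called open lay wholly upstream of the bases scored. In the 100 bp bins just before and just after its 5′ end Bcl11b had 11 and 12 insertions. The closed 5′ ends of Notch1 and Lck had more there, 20 and 23 at Notch1 and 27 and 20 at Lck. Bcl11b is therefore a weak case for this contrast. Tox and Notch1 had low ratios at their annotated 5′ ends, 0.333 and 0.0809, and high ratios of 0.964 and 0.660 at their coding starts. The 5′ end of Tox was open despite its low ratio, with a level of 16.2, whereas that of Notch1 was closed. The second principal start of Tcf7 also went the other way, with a ratio of 0.577 and a level of 7.96 (7.34 to 8.61). It was called open through the same site as the 5′ end of Tcf7, so it is not a separate case. Over all protein-coding genes, 9248 of the 9734 starts with a ratio of at least 0.6 were open, and 4221 of the 12204 starts below it (34.6%). Among 43 other T-lineage genes with a protein-coding annotation, 6 of 7 CpG-rich and 14 of 36 CpG-poor starts were open. This did not hold within the 12 regulators, where all 7 CpG-poor and 4 of 5 CpG-rich starts were open. The 5 antigen receptor and recombination genes among the 43 were all CpG-poor and closed.

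**Figure D4:**
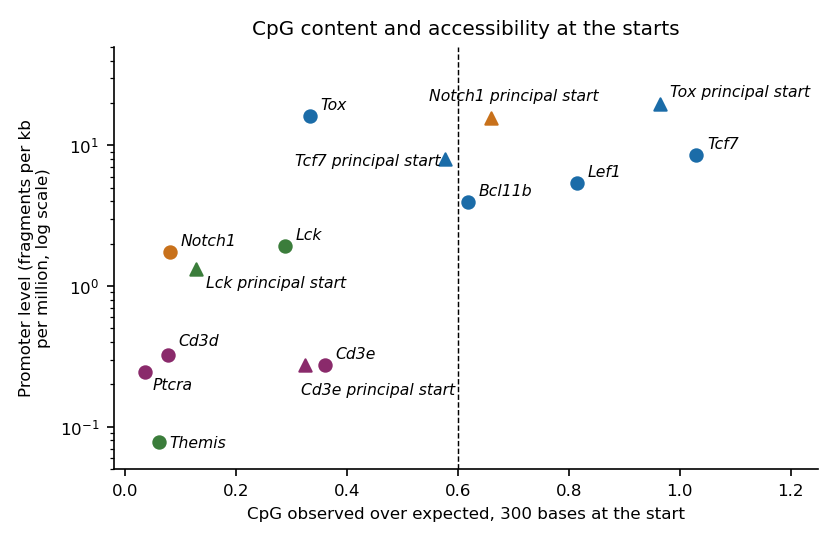
Promoter level (log scale) against the observed-over-expected CpG ratio of the 300 bases at the start, with circles for annotated 5′ ends and triangles for principal transcripts that start elsewhere. The dashed line is a ratio of 0.6. The starts to its right have levels between 3.96 and 19.8, and of those to its left only the 5′ end of Tox (16.2) and the inner start of Tcf7 (7.96) are above 1.92.

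The shares of member sites with a motif match were mostly near those of all sites, and no test was made of the differences. TCF/LEF letters were in 17 of the 42 sites (40.5%) against 33.1% of all 68169 sites, RUNX in 12 (28.6% against 31.7%), ETS in 20 (47.6% against 47.0%), E-box in 13 (31.0% against 35.2%) and RBPJ in 4 (9.52% against 6.65%). The GATA letters were rarer, in 1 site (2.38%), inside Notch1, against 11.9% of all sites. At the 10 annotated 5′ ends, TCF/LEF was found in 2, against 30.1% of protein-coding starts, and E-box in 6, against 32.8%. ETS was found in 4 (41.7% of protein-coding starts), RBPJ in 2 (6.07%), RUNX in 1 (21.8%) and GATA in 0 (10.2%). A match describes letters only, and sites within a gene share their locus.

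In single cells a fragment at the promoter was found in 26.8% of cells for Tox, 15.2% for Tcf7, 10.3% for Lef1 and 7.61% for Bcl11b, and in at most 3.61% (Lck) for the other 6 genes. Over whole windows the shares did not divide by role. A fragment in the window was found in 69.1% of cells for Tox, 63.5% for Notch1, 53.0% for Lck, 41.0% for Lef1, 40.6% for Tcf7, 30.5% for Cd3d, 30.1% for Bcl11b and 15.6% for Themis, windows that differ in length. For Cd3e and Ptcra it was 2.56% (2.07 to 3.13) and 2.51% (2.02 to 3.07). After each cell was thinned to 6000 fragments, with 244 shallower cells left out, the shares ran from 51.8% for Tox to 1.71% for Cd3e and 1.33% for Ptcra. A cell had fragments at a median of 3 of the 10 genes and at most 9, and 50 cells had none. A fragment at the promoter of Cd3e, Cd3d, Ptcra or Themis was seen in 64 cells, and in no cell at more than 1 of them, where each promoter had a fragment in 0.165% to 0.661% of cells. Of 12 promoters that mark mature T cells, no cell had fragments at 4 or more, and 6 cells had them at 3. Without Lat, 16 cells had them at 2 and none at 3 or more.

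Fragments in barcodes that were not called cells gave the background of the library. Their 2794021 nuclear fragments gave 0.178 (0.058 to 0.416) over the window of Ptcra, 0.278 (0.133 to 0.511) over Cd3e and 0.112 (0.0869 to 0.142) over Themis. For Ptcra and Cd3e these intervals overlapped the values in cells, and for Themis the value in cells was lower. The intervals of Lef1, Bcl11b and, narrowly, Tcf7, which had open promoters, overlapped too. In these barcodes Lef1 was at 0.473 (0.401 to 0.554), Bcl11b at 0.387 (0.316 to 0.470) and Tcf7 at 1.34 (1.11 to 1.60). Their values in cells were 0.486, 0.390 and 1.65 (1.58 to 1.72). Such an overlap was therefore not particular to the genes without a site. Cd3d, Lck, Tox and Notch1, with open sites, were at 4.12, 2.26, 0.338 and 1.51 in these barcodes. Their levels in cells were higher, at 5.40, 2.86, 0.439 and 1.85.

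The wider T-lineage lists were chosen with earlier results of these data known, so they are a description and no independent support. In them the regulators and the antigen receptor genes lay on opposite sides of the 61.4% of protein-coding promoters that were open. Of 12 other regulators, 11 had open promoters, with a median level of 8.36. Of 9 other antigen receptor and recombination genes 0 were open, with a median of 0.350, although 4 had a site elsewhere in the window. Of these 9, 4 are constant segments of receptor loci (Trac, Trbc1, Trbc2 and Trdc), which are not annotated as protein-coding genes, and the 5 that are were closed too. Of 12 further signalling genes 6 were open (median 1.89), a share near that of all coding genes, and of 14 surface genes 3 (median 0.325). The highest promoters of the 47 genes were those of the Notch target Hes1 (29.9), Zbtb7b (23.5), Runx3 (22.5), Tcf12 (18.6) and the kinase gene Fyn (13.9), although no site lay within 500 bp of the 5′ end of Fyn. The lowest were those of Cd8a (0.039, 3 fragments), Sh2d1a (0.091), Trdc (0.104), Trat1 (0.117) and Cd4 (0.130, the same as Il2ra). In all, 20 of 47 were open, 13 had a site but no open promoter, and 14 had no site, where 13.1% of coding genes had a site but no open promoter and 74.5% had any site.

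The study sorted HSC subtypes by CD27, CD357, CD61 and CD274, and the question here was whether accessibility at the T-lineage genes moved with any of these markers. Multilineage (MUL) HSCs are gated as CD27 and CD357 high, and platelet-biased (PLT) HSCs as CD61 and CD274 high. CD27 was split at 1 tag (2051 against 1578 cells), and each other marker into the highest against the lowest tercile of counts as near as ties allowed: CD357 at 4 or more against 1 or fewer (1365 and 1200 cells), CD61 at 5 or more against 2 or fewer (1191 and 1327) and CD274 at 24 or more against 14 or fewer (1228 and 1186). Ratios are log2 of fragments per nuclear fragment, high over low, with 0.5 added to each count.

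Summed over the 10 windows, accessibility differed by no more than 0.02 on the log2 scale for any marker. By CD27 the log2 ratio was -0.02 (-0.06 to 0.02), from 11737 and 8897 fragments. It was 0.00 (-0.04 to 0.05) by CD357, -0.02 (-0.07 to 0.03) by CD61 and 0.02 (-0.03 to 0.07) by CD274. The intervals bound the fold of the sum between 0.956 and 1.05. Genes with many fragments weigh most in these sums. Over all kept cells Tox, Notch1 and Lck held 5194, 4316 and 3008 window fragments, and Ptcra and Cd3e 103 and 102. The sums therefore say little about Ptcra and Cd3e. The summed level of the 47 other T-lineage genes was as flat, at -0.01, 0.00, -0.01 and 0.02. High groups had more antibody tags in all, from a median of 31 against 27 for CD27 to 43 against 19 for CD274, and more cells with excess overlapping fragments, from 8.29% against 5.96% for CD27 to 11.8% against 5.05% for CD61. With tags as a centred log ratio the sums were -0.01, 0.01, -0.01 and 0.02, and without the cells with excess overlaps they were -0.03, 0.02, -0.03 and 0.02.

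By CD27, Ptcra was lower and the other 9 genes were between -0.19 and 0.03. Ptcra had 45 fragments in CD27-positive and 58 in CD27-negative cells, a log2 ratio of -0.78 (-1.38 to -0.20). Its level was 0.350 with no CD27 tag (0.266 to 0.453), 0.271 with 1 tag (0.189 to 0.377) and 0.108 with 2 or more (0.052 to 0.199), the last from 10 fragments. It was the only one of the 10 genes, all with at least 100 fragments, past a log2 ratio of 0.32 in size, where 1.67% of 22461 genes were lower and 1.45% higher. Intervals wholly below 0 were found for 3.52% of genes and wholly above for 3.04%. At its promoter the 11 and 8 fragments gave 0.02 (-1.41 to 1.56). With fragments under 150 bp Ptcra was at -0.15 (-1.54 to 1.32), from 11 and 9. Among cells with at least 50 tags it was at -1.44 (-3.18 to 0.30), from 7 in each group. The Tcf7 promoter was at -0.27 (-0.49 to -0.04) with 346 and 312 fragments, while its promoter site was at -0.19 (-0.41 to 0.03) and its whole window at -0.04 (-0.17 to 0.08), and 3.11% of 17190 promoters had an interval wholly below 0 in this comparison. The strongest site of Lef1, in an intron, was at 0.50 (0.12 to 0.90), from 165 and 87 fragments. In the same comparison the summed windows of the NK and ILC genes were at -0.12 (-0.23 to 0.00) and of the HSC genes at -0.03 (-0.06 to 0.00), both with the upper bound just below 0, and their part in the result was not tested.

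By CD357 no gene of the 8 with at least 100 fragments passed that size, where 2.42% of 21555 genes were lower and 2.0% higher. Bcl11b was lower in CD357-high cells at -0.24 (-0.42 to -0.06), from 515 and 513 fragments, and its level in the 3 groups of rising CD357 was 0.430, 0.378 and 0.364. With CD357 split at its median it was at -0.15 (-0.31 to 0.00), an interval that holds 0, and its promoter was at -0.29 (-0.68 to 0.11). Intervals wholly below 0 were found for 4.36% of genes and wholly above for 3.78%. Tcf7 and Lck were at 0.11 (-0.04 to 0.26) and 0.12 (-0.01 to 0.24), and the promoter site of Tcf7 was at 0.31 (0.04 to 0.58), from 289 and 197 fragments, while 1 kb on each side of its start was at 0.20 (-0.07 to 0.47). Beside these, the erythroid genes were at 0.10 (0.01 to 0.19) and the megakaryocyte genes at -0.05 (-0.10 to -0.01) in this comparison, and their part in the result was not tested.

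By CD61 none of the 8 genes with enough fragments passed a log2 ratio of 0.32 in size, where 2.17% of genes were higher and 2.0% lower. These 8 lay between -0.11 (Cd3d) and 0.11 (Themis), and all their intervals held 0. Cd3e, below the fragment minimum, had 20 fragments in CD61-high and 46 in CD61-low cells, a log2 ratio of -1.09 (-1.95 to -0.33), with levels of 0.257, 0.242 and 0.119 over rising CD61. At the promoter alone it was at -1.50 (-5.02 to 0.67), from 2 and 7 fragments, and with fragments under 150 bp at 0.33 (-1.63 to 2.40), from 6 and 5. Among cells with at least 50 tags Cd3e had 1 fragment in each group, and Cd3d was at -0.73 (-1.24 to -0.22), from 62 and 73. Of genes with enough fragments, 3.92% had an interval wholly below 0 and 4.38% wholly above.

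By CD274, Notch1 was higher in CD274-high cells. It had 1593 against 1339 fragments, a log2 ratio of 0.14 (0.04 to 0.25), and its level rose from 1.76 (1.67 to 1.86) to 1.82 (1.73 to 1.92) and 1.95 (1.85 to 2.04) over the 3 groups. Among cells with at least 50 tags it was at -0.06 (-0.37 to 0.25). At the coding-start site the ratio was 0.32 (0.10 to 0.54), from 401 and 298 fragments, and the strongest site of Bcl11b was at -0.64 (-1.20 to -0.10), from 49 and 71. None of the 8 genes with enough fragments passed a log2 ratio of 0.32 over its window, a size that 2.76% of 21413 genes passed upwards and 3.43% downwards. Intervals wholly above 0 were found for 6.89% of genes and wholly below for 6.84%, the largest shares of the 4 markers. Lef1 was at -0.15 (-0.30 to 0.00, with the upper bound just below 0) and Ptcra at -0.77 (-1.57 to -0.03), from 25 and 40 fragments. With CD274 split at its median Lef1 was at -0.04 (-0.16 to 0.08), and Ptcra was at -0.39 (-1.16 to 0.36) with the centred log ratio and at -0.47 (-1.25 to 0.27) with tags as a residual on the other antibodies. Beside these, the summed windows of the 12 mature T cell genes were at 0.09 (0.03 to 0.16), the myeloid genes at 0.10 (0.01 to 0.19) and the erythroid genes at -0.20 (-0.29 to -0.12) in this comparison, and their part in the result was not tested.

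Over all 40 pairs of gene and marker, 6 intervals left out 0, of which 2 rested on fewer than 100 fragments. The 34 pairs with at least 100 fragments thus held 4 such intervals, where 6.56%, 8.13%, 8.3% and 13.7% of all genes had one, in either direction, by CD27, CD357, CD61 and CD274. At the strongest site of each gene, the 4 given above were the only intervals of 28 such pairs with these markers to leave out 0. Over all open sites with at least 100 fragments the shares were 6.03%, 7.09%, 7.27% and 12%, and nothing is read from either count of 4. When the markers were combined as in the gates of the study, at the median of each, 61 cells were on the MUL and 342 on the PLT side. The MUL side had fewer antibody tags in all, a median of 26 against 37. It also had fewer cells with excess overlapping fragments, 1.64% against 7.02%. The 10 genes together had 335 and 1875 fragments, a log2 ratio, MUL over PLT, of 0.08 (-0.10 to 0.24). Every interval of a single gene window held 0 here, from -0.28 (-0.83 to 0.20) for Lck to 0.61 (-0.02 to 1.17) for Cd3d among the genes with at least 100 fragments. At the strongest sites, that of Cd3d was at 0.668 (0.006 to 1.252), from 29 and 109 fragments, and the other 7 intervals held 0, where 5.06% of all open sites with at least 100 fragments had an interval that left it out. Over whole windows, of the 7 genes with at least 100 fragments in the window, 2 passed a log2 ratio of 0.32 upwards and 0 downwards, where 13.9% and 14.8% of 13457 genes did. The HSC genes were at -0.15 (-0.27 to -0.04) in this comparison, and their part in the result was not tested.

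**Figure D5:**
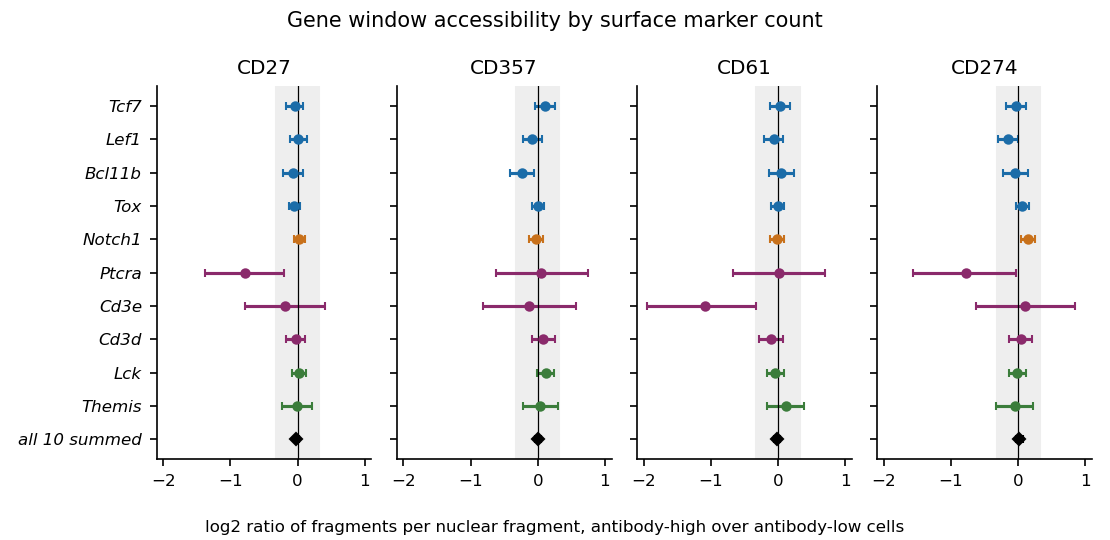
Log2 ratio of fragments per nuclear fragment over the window of each gene, cells high over cells low for each marker, with exact 95% intervals for counting error only. Grey marks log2 ratios up to 0.32 in size and black diamonds the sum of all 10 genes. The sums lie between -0.02 and 0.02, and the points outside the grey band are Ptcra by CD27 (-0.78) and CD274 (-0.77) and Cd3e by CD61 (-1.09).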

How the data were processed

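The members and lists were chosen with earlier results of these data known. Reads had been aligned to mm10 with Cell Ranger ARC 2.0.2, per the labels. The authors deposited ATAC fragments, an antibody tag count table (CITE-seq-Count, version not given in the sources used here) and a per-barcode table with counts of fragments and RNA UMIs for the whole series. Of 43705382 listed fragments, those on chromosomes 1 to 19, X and Y in barcodes with at least 10 tags were used, and those in barcodes not called cells served as the background only.

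Fragments overlapping each GENCODE M21 window (gene body and 2 kb upstream, or 1 kb on each side of the 5′ end) were counted and divided by length and by nuclear fragments. Open sites were rebuilt from insertions in 100 bp bins, summed over 300 bp and joined across gaps of up to 200 bp. Intervals were exact (Poisson, Clopper-Pearson, or conditional binomial for ratios), from scipy 1.17.1, and treat fragments as independent. Doublets were not called, and 264 cells with an excess of 1 kb windows covered by 3 or more fragments were left out in 1 alternative. The ratios and their intervals were checked on simulated data. The simulated counts were independent Poisson counts, so this check could not test whether fragments are independent.

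All 10 members were named. Of other T-lineage genes the 5 highest and 5 lowest promoters were named, and genes resembling a member only where its variance over 16 classes of cells, high or low for each of 4 markers, exceeded 2 times the Poisson variance. Per gene, only fragment counts of at least 100 entered shares past a log2 ratio of 0.32. The gates, the coding starts and the strongest sites were compared after seeing the data.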

Additional observations from a re-analysis of the deposited data

How the results depend on the processing

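The summed ratios by the 4 markers stayed between -0.08 and 0.12 under all alternatives run, and none of their intervals left out 0. Values outside the reported interval came only from the 363 cells with at least 50 tags: 0.12 by CD27 (-0.01 to 0.26), -0.059 by CD357 (-0.21 to 0.09) and -0.084 by CD61 (-0.24 to 0.07), and the last 2 intervals held the reported values. The promoter level over the 10 genes together, 3.87, became 3.61 in those cells, 2.99 with fragments under 150 bp and 5.04 with 500 bp on each side of the start. The share of cells with a fragment at any of the 10 promoters moved from 51.3% to 34.8% when cells were thinned. Of 400 single-gene values, 78 had the opposite sign to the reported value, of which 6 had a reported interval that left out 0. Under the 10 alternatives the 6 single-gene intervals reported as leaving out 0 came to hold 0 in 3 for Ptcra by CD27, 4 for Bcl11b by CD357, 3 for Cd3e by CD61, and 6, 2 and 7 for Lef1, Notch1 and Ptcra by CD274. Of 340 alternative values whose reported interval held 0, 5 had an interval that left it out. Ptcra by CD27 became 0.018 at the promoter alone. Cd3e by CD61 became 0.33 with fragments under 150 bp. In cells with at least 50 tags, Lef1 by CD274 became 0.30 and Notch1 by CD274 -0.059. In the same cells Ptcra by CD274 became 4.13 (9 fragments against 0, a value set by the 0.5 added). Its interval there lay wholly above 0, from 0.864 upwards, on the side opposite to the reported -0.77. At the promoter alone Ptcra by CD274 became 0.34. The cause was not tested. The 4 open promoters became 6 when any coding start was allowed. Depth limits Ptcra, Cd3e and Themis, whose promoters rest on 6 to 21 fragments. No paired analysis was possible because there was 1 pool of cells.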

Other observations

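Bcl11b was the only member whose level varied over the 16 classes of cells, made by splitting each of the 4 markers at its median, by more than 2 times the Poisson variance. Its ratio was 2.16, where 6.77% of 17112 genes were past 2 and 4.32% above its own value, and the median of these genes was 1.17. Lef1 followed at 1.88, and the lowest were Tox at 0.887 and Lck at 0.616. The genes whose log2 levels over the 16 classes were most like Bcl11b were Gm35188 (Pearson r = 0.854), Wnk1 (r = 0.849) and Isca2 (r = 0.843). These are the highest of many correlations over 16 points that share their cells, and the 3 genes varied by only 0.782, 1.19 and 0.747 times the Poisson variance.

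Fragments under 150 bp were a smaller share at the promoters of all 10 genes, open or closed, than over all promoters, where they made up 43.2%. That value is for all promoters together. How many single genes lie below it was not counted, so the trait is not shown to be particular to these 10. Their share was 24.2% at Tcf7, 17.5% at Lef1, 29.2% at Bcl11b, 30.6% at Tox, 24.4% at Notch1 and 15.5% at Lck. At Cd3e, Ptcra, Cd3d and Themis, with 21, 19, 25 and 6 fragments, it was 19%, 15.8%, 4% and 0%. Of all fragments of the kept cells 33.2% were under 150 bp.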
